A study of Mus musculus with 25 samples.

Results

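The enrichment of cholinergic neuron transcripts was measured as the ratio of ribosome-bound mRNA in the immunoprecipitates (IP products) of control mice to the RNA of the spinal cord from which they were drawn. The comparison used the 12 control IP libraries and the 1 pooled input library, 13 of the 25 libraries of the series. For each gene the log2 ratio of CPM, the counts of a gene per 1000000 counts on all genes, was taken between each control library and the input, with a prior count of 2. Genes with at least 20 counts in the input or in the median control library were kept, which left 14059 of 50559 genes. A gene was called enriched where the log2 ratio was over 1 in all 12 control libraries and depleted where it was under -1 in all 12. The input is a single library, so its spread is unknown. No p-value was computed for the ratios. Their SD covers the 12 control mice only, and for the genes described in detail a 95% exact Poisson interval gives the counting error of the input.

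Control mice carried *ChAT-Cre* and *RiboTag fx/+* on a C57BL/6J background. They were males aged 6 mo, collected at Zeitgeber Time (ZT) 8 or ZT20 (n = 6 each), where ZT counts hours from lights on. *ChAT-BKO* mice carry *Bmal1 fx/fx* in addition and lack the clock activator BMAL1 in the same neurons (n = 6 at each time). All of these mice share the Cre driver and 1 RiboTag allele. The input was drawn from the spun homogenate before the antibody was added and pools wild-type and *Bmal1* knockout material. The sample labels name cholinergic neurons as its cell type, whereas the methods describe RNA of the whole spinal cord. Counts on genes came to 7.40 M in the input and to 6.78 to 31.7 M in the controls (median 11.9 M), so that 0 counts allowed up to 0.406 CPM in the input and 0.0947 to 0.442 CPM in the controls, from 3 counts and for counting error only.

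Spinal cholinergic neurons comprise the skeletal and visceral motor neurons, whose axons leave the cord, and smaller groups of interneurons such as the partition cells near the central canal. They make acetylcholine with choline acetyltransferase, load it into vesicles with the vesicular acetylcholine transporter, and take choline back up with a high-affinity transporter after acetylcholinesterase has split it in the cleft. The RiboTag allele replaces the last exon of *Rpl22*, a protein of the large ribosomal subunit, with a version that carries a hemagglutinin (HA) tag once Cre has acted. Recombination is permanent, so a cell that expressed *Chat* only earlier in life keeps the tag. An HA IP therefore recovers ribosomes of any cell with a history of *ChAT-Cre* activity. Ribosome association, cell number and RNA per cell all enter the ratio and cannot be told apart in these bulk samples.

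*Chat* and *Slc18a3*, which encode the enzyme and the vesicular transporter, form 1 locus on the minus strand of chromosome 14. *Slc18a3* (chr14:32462437-32464850, GRCm38) lies wholly within the first intron of *Chat* (chr14:32408203-32465909) and shares 0 exonic bases with it, so reads on spliced transcripts can be assigned to either gene. The promoter windows of both genes are shown because the pair was recovered from the same IP products with different ratios. They are RefSeq sequences of GRCm38.p6, from 250 bases before to 50 bases after the start, and the capitals mark CACGTG, the E-box bound by CLOCK and BMAL1. The *Chat* window spans chr14:32465860-32466159 and the *Slc18a3* window spans chr14:32464801-32465100.

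Chat: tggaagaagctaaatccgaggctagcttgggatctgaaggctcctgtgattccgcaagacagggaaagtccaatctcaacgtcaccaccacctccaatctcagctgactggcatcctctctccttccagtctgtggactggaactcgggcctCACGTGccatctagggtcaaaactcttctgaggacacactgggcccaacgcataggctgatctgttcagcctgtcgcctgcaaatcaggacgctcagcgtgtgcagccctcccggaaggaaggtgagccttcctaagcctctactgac
Slc18a3: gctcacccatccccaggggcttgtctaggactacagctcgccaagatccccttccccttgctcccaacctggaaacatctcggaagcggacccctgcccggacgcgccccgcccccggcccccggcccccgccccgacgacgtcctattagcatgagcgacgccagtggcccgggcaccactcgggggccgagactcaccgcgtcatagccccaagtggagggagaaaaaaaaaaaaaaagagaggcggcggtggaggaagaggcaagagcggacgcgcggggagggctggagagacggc

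The *Chat* window held 1 CACGTG and the *Slc18a3* window 0. Neither held TAATTA, a core read by homeodomain factors, or TATAAA, all 3 searched on both strands. Among 14071 promoters of tested genes, CACGTG was found in 9.56%, TAATTA in 2.59% and TATAAA in 6.99%. The shares were 8.73%, 2.14% and 9.49% among 653 promoters of enriched genes and 8.10%, 2.87% and 8.32% among 3556 promoters of depleted genes.

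The study used quantitative PCR primers for *Chat* and *Slc5a7*, and these are shown because they mark the parts of the transcripts that such an assay reads. The *Chat* pair spans bases 1298 to 1410 of the 2858-base transcript Chat-201, and the *Slc5a7* pair spans bases 1560 to 1685 of the 5180-base Slc5a7-201.

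Chat forward: gcttgaatggagcgaatcgttgg
Chat reverse: caccaggacgatgccatcaaaag
Slc5a7 forward: tccatcctgtcggcgagttcta
Slc5a7 reverse: tgcagatgctccgaacacaagc

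Cholinergic transcripts were enriched. Of the 7 genes of the cholinergic machinery, 5 were enriched and 0 depleted, against 5.01% of all genes tested that were enriched (705 genes) and 24.9% that were depleted (3500 genes). Of the 705, 115 had under 20 input counts and so passed the filter only through the controls, where they are high. With 20 counts required in the input, 590 of 13558 genes were enriched. The median log2 ratio of the 7 was 2.03, beside -0.43 over all genes tested. In CPM summed over the 7, the controls ran from 2515 to 3083 and the input was at 543.

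*Slc18a3*, the vesicular acetylcholine transporter, was at 74.1 CPM (548 counts) in the input. The 6 controls at ZT8 ran from 734 to 909 CPM with a median of 845, and those at ZT20 from 724 to 854 CPM with a median of 811. All 12 controls lay far above the input and the time points overlapped, with a mean log2 ratio of 3.46 ± 0.10 (SD, n = 12), an 11.0-fold excess. Counting error of the input placed this ratio between 3.33 and 3.58.

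*Chat*, the enzyme that makes acetylcholine, was at 17.0 CPM (126 counts) in the input. At ZT8 the controls ran from 51.0 to 147 CPM with a median of 81.2, and at ZT20 from 62.1 to 101 CPM with a median of 87.9. Every control was above the input, with a mean log2 ratio of 2.29 ± 0.42 (input counting interval 2.04 to 2.55). The spread of *Chat* among the controls was the widest of the 7 genes. Control ZT8 replicate 2 had its lowest ratio, at 1.57, and Control ZT8 replicate 5 its highest, at 3.09.

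*Slc5a7*, the high-affinity choline transporter, was at 79.4 CPM in the input, from 202 to 367 CPM in the controls at ZT8 (median 261) and from 242 to 326 CPM at ZT20 (median 297). Its mean log2 ratio was 1.80 ± 0.23, and the extremes were the same libraries as for *Chat*, at 1.34 and 2.21.

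*Ache*, acetylcholinesterase, was at 254 CPM in the input and at 917 to 1132 CPM in the 12 controls (log2 ratio 2.03 ± 0.08). *Slc10a4*, a vesicular protein of cholinergic and monoaminergic terminals, was at 30.8 CPM in the input and at 343 to 400 CPM in the controls (3.58 ± 0.07). These 2 genes had the tightest ratios of those enriched in this group, and no control overlapped the input. The anchors of acetylcholinesterase were not called. *Prima1*, its membrane anchor, had a log2 ratio of 1.01 ± 0.07, and *Colq*, its collagen tail at the neuromuscular junction, 0.18 ± 0.19.

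**Figure D1:**
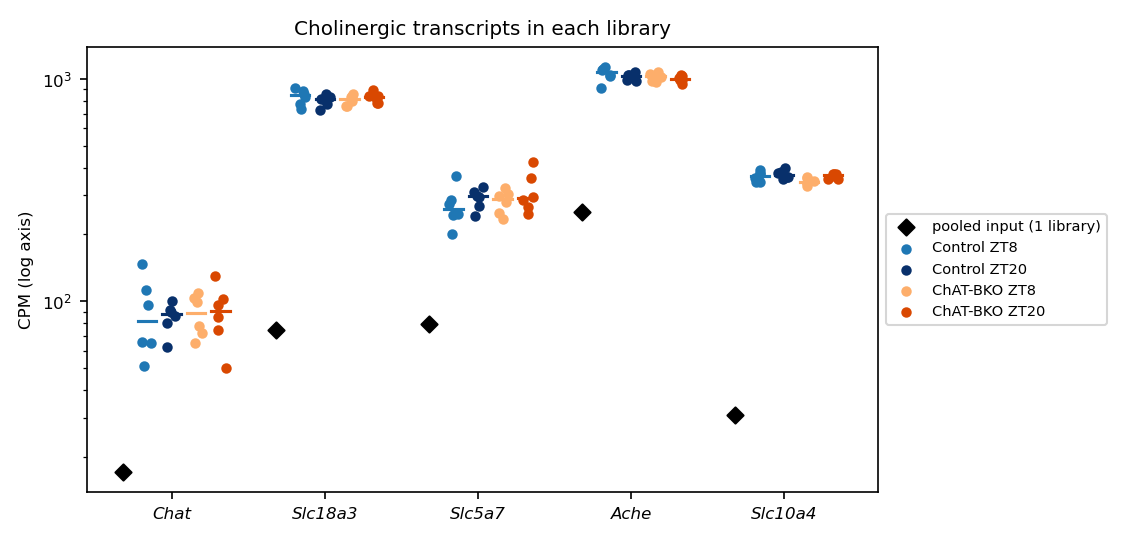
CPM on a log axis for 5 cholinergic transcripts in the pooled input (black diamond) and in each IP library (points, with bars at the group medians, n = 6). All IP points lie above the input for each gene, *Chat* from 17.0 CPM in the input to at least 51.0 in the controls, and the 4 groups of IP libraries overlap.

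The *ChAT-BKO* libraries, which share the input, gave a mean log2 ratio of 3.46 for *Slc18a3* (lowest 3.35, highest 3.59), 2.33 for *Chat* (1.55 to 2.93) and 1.88 for *Slc5a7* (1.56 to 2.42). Each of these ranges overlapped the range of the controls. The median of the 7 genes per library ran from 1.57 to 2.21 in controls and from 1.74 to 2.42 in *ChAT-BKO* libraries.

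Skeletal motor neuron markers were enriched, 11 of 16, with 0 depleted and a median log2 ratio of 2.34. Over all genes tested 5.01% were enriched and 24.9% depleted. All 16 were above the input in every control, beside 26.6% of all genes tested. *Prph*, the intermediate filament peripherin, was at 153 CPM in the input and at 1882 to 2536 CPM in the controls (3.88 ± 0.13). *Uts2*, the peptide urotensin 2, was at 9.19 CPM in the input and ran from 109 to 215 CPM at ZT8 and from 121 to 184 CPM at ZT20 (4.05 ± 0.31). The neuropeptide genes *Calca* and *Calcb*, which encode forms of calcitonin gene-related peptide, had ratios of 2.36 ± 0.26 and 2.95 ± 0.17.

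Markers that separate kinds of motor neuron were not recovered alike. *Spp1*, osteopontin, which marks alpha motor neurons, was at 148 CPM in the input and at 781 to 1008 CPM in the controls (2.57 ± 0.11). *Chodl* and *Mmp9*, markers of fast motor neurons, had ratios of 3.16 ± 0.07 and 2.55 ± 0.19. *Htr1d*, a serotonin receptor of gamma motor neurons, was at 5.81 CPM in the input and at 8.01 to 11.7 CPM in the controls, and its ratio of 0.74 ± 0.19 did not pass the limit. *Ret* and *Gfra1*, the receptor pair for glial cell line-derived neurotrophic factor, had ratios of 1.69 ± 0.24 (enriched) and 1.18 ± 0.23 (not called). *Rbfox3*, the NeuN antigen, had 0.27 ± 0.12, the lowest ratio of the 16 markers, and *Stk32a* had 1.23. Which kinds of motor neuron were recovered more was not tested, and these few genes do not rank them.

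Of 11 tested transcription factors of motor neurons, 6 were enriched and 2 depleted, beside 5.01% and 24.9% of all genes tested. The median log2 ratio was 1.26. The count of 6 includes genes that passed the count filter only through the controls, where they are high, *Mnx1* among them. *Mnx1* (HB9), a determinant of motor neuron identity, had 9 counts in the input (1.22 CPM) and 23.9 to 39.4 CPM in the controls, a ratio of 4.51 ± 0.17 with an input counting interval of 3.66 to 5.45. The LIM homeodomain factors *Lhx4* (2.47 ± 0.07), *Lhx3* (2.07 ± 0.18), *Isl2* (2.04 ± 0.07) and *Isl1* (1.26 ± 0.16) were enriched, as was *Esrrb* (1.38 ± 0.14), an orphan nuclear receptor. *Foxp1*, a determinant of limb motor columns, had a ratio of -0.65 ± 0.13, and *Esrrg*, a relative of *Esrrb* expressed in gamma motor neurons, -0.71 ± 0.36. *Nkx6-1*, a factor of ventral progenitors, and *Etv4*, a factor of motor pools, were depleted at -3.22 ± 0.67 and -2.18 ± 0.29. *Onecut1* had 0 counts in the input and 0 in the median control and was not tested. Where only genes with 20 counts in the input itself were kept, the median of this list was -0.65, since *Mnx1* and other low members dropped out.

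Genes linked to visceral motor neurons and cholinergic interneurons were split. Among the 6 reported here, 0 were enriched and 3 depleted, beside 5.01% and 24.9% of all genes tested. In every control 2 of these 6 genes were above the input, against a share of 26.6% of all genes tested. Their median of -0.62 turned to 0.22 with a count minimum of 50. *Nos1*, nitric oxide synthase of preganglionic neurons, was at 70.4 CPM in the input and at 85.3 to 114 CPM in the controls (0.48 ± 0.13). *Zeb2*, a repressor also expressed in glia, was depleted at -4.76 ± 0.34, and *Pax2*, which marks inhibitory lineages, at -1.45 ± 0.17.

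**Figure D2:**
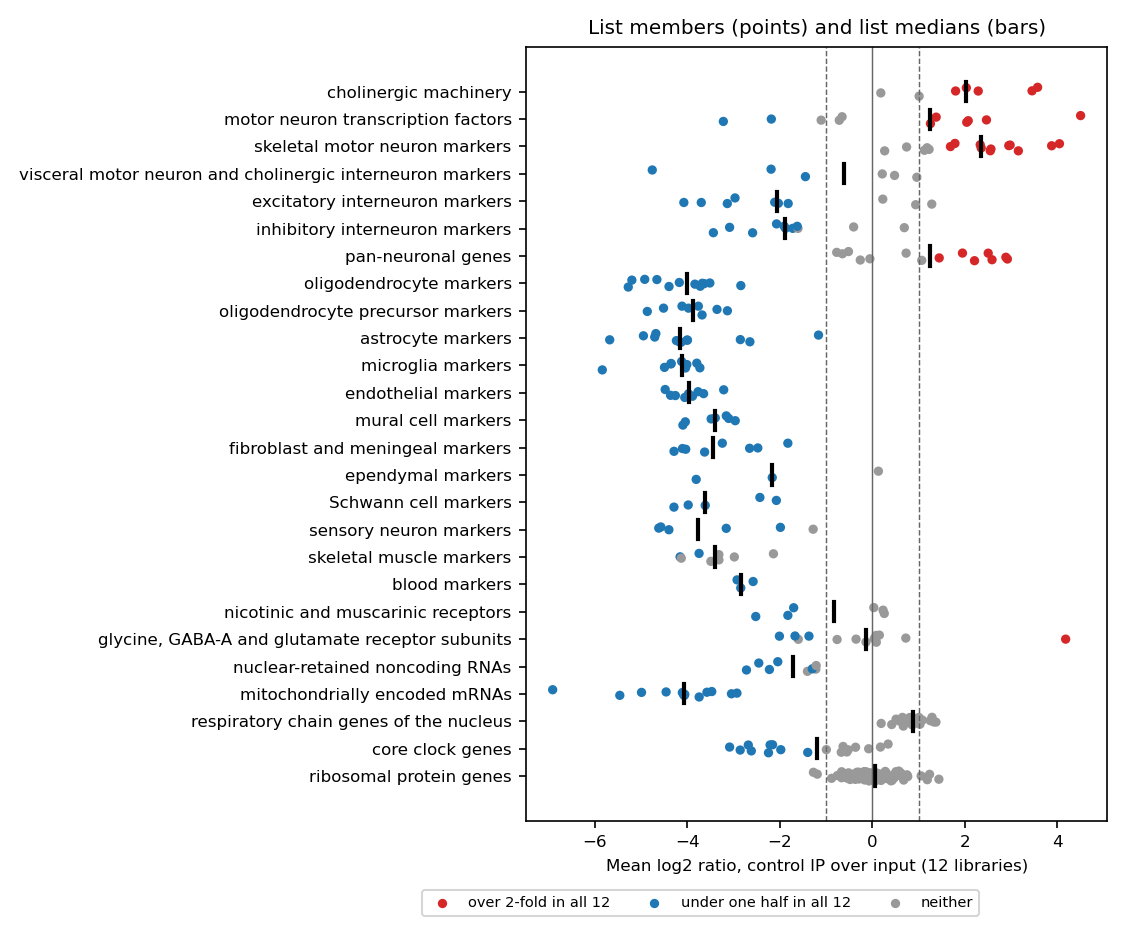
Mean log2 ratio of control IP over input for each tested list member (points), with the list median as a bar. The medians of cholinergic and motor neuron lists lie to the right of 0 (2.03, 1.26 and 2.34). Those of oligodendrocyte, astrocyte, microglia and vascular lists lie to the left of -3. *Aldoc* and *Foxj1* lie apart from the other members of their lists.

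Transcripts of the other neurons of the cord were depleted. Of 10 tested markers of excitatory interneurons, 7 were depleted and 0 enriched (median -2.07), and of 11 markers of inhibitory interneurons, 8 were depleted and 0 enriched (median -1.88). Over all genes tested 24.9% were depleted and 5.01% enriched. *Slc17a6*, the vesicular glutamate transporter of the cord, was at 183 CPM in the input and at 37.4 to 60.5 CPM in the controls (-2.03 ± 0.18). *Slc6a5*, the glycine transporter of glycinergic terminals, was at 479 CPM in the input and at 97.5 to 142 CPM in the controls (-2.07 ± 0.15). No control overlapped the input for either gene.

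Exceptions stood in both lists. *Gad1*, which makes GABA, was at 167 CPM in the input and at 106 to 158 CPM in the controls, all below the input, with a ratio of -0.40 ± 0.15 that turned to 0.076 with TMM scaling, while its paralog *Gad2* was depleted at -1.88 ± 0.17. The neuropeptide genes *Nts* (1.29 ± 0.20), *Cck* (0.94 ± 0.34) and *Gal* (0.69 ± 0.37) had ratios above 0 and were not called. *Tac2*, which encodes neurokinin B of dorsal horn neurons, had the lowest ratio of the excitatory list, at -4.08 ± 0.38.

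Genes that most neurons express had mixed ratios. Of 14 pan-neuronal genes, 7 were enriched and 0 depleted (median 1.26), beside 5.01% and 24.9% of all genes tested. The neurofilament subunits *Nefh* (2.92 ± 0.08), *Nefm* (2.89 ± 0.13) and *Nefl* (2.51 ± 0.06) were among the highest, with *Tubb3*, neuronal beta-tubulin, at 2.59 ± 0.06. *Snap25*, a fusion protein of all synapses, was at -0.05 ± 0.09, *Syt1*, a calcium sensor of release, at -0.65 ± 0.11, *Map2* at -0.26 ± 0.20 and the filament protein *Ina* at -0.77 ± 0.10. The 14 genes together took 55236 to 60654 CPM in the controls and 15386 CPM in the input.

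Glial, vascular and connective tissue markers were depleted, beside 24.9% of all genes tested. All 12 oligodendrocyte, 8 tested precursor, 12 astrocyte, 9 tested microglia, 9 endothelial, 7 tested mural, 8 fibroblast and 5 Schwann cell markers were depleted, with medians of -4.01, -3.87, -4.15, -4.12, -3.98, -3.40, -3.44 and -3.61. *Mbp*, myelin basic protein, was at 13246 CPM in the input and still at 807 to 1026 CPM in the controls (-3.84 ± 0.12), 7.00% of the input level. *Gfap*, the astrocyte filament, went from 1224 CPM in the input to 60.8 to 102 CPM in the controls (6.26% of the input), and *Cx3cr1*, a microglial chemokine receptor with 259 counts in the input, was at 0.87 to 2.19 CPM in the controls (-4.36 ± 0.36). Some RNA of these cells remained in the IP products, with oligodendrocyte markers at a sum of 1699 to 2223 CPM in the controls and 24765 CPM in the input.

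**Figure D3:**
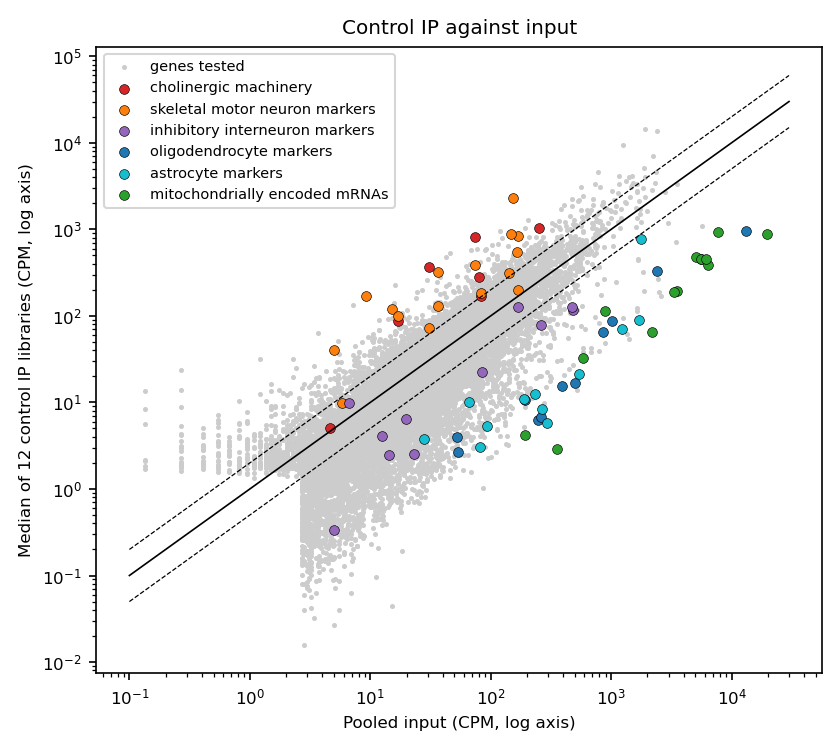
Median CPM of the 12 controls against CPM of the input, both on log axes, for the tested genes (grey, without the 26 at 0 in either) and 6 lists, with lines at equality and at the log2 limits of 1 and -1. Skeletal motor neuron markers lie above equality, 11 of 16 of them enriched, and oligodendrocyte, astrocyte and mitochondrially encoded transcripts lie below the lower limit.

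Single members stood apart from their own list. *Aldoc*, an aldolase of astrocytes, was depleted less than the other astrocyte markers, from 1771 CPM in the input to 728 to 870 CPM in the controls (-1.16 ± 0.07), where the next was *Aldh1l1* at -2.65 ± 0.15. *Foxj1*, a factor of ciliated ependymal cells, was at 48.0 CPM in the input and at 48.6 to 59.8 CPM in the controls (0.13 ± 0.10), while the ependymal markers *Ccdc153* and *Rarres2* were depleted at -2.16 ± 0.39 and -3.81 ± 0.49. The other 3 ependymal markers had 9 to 12 counts in the input and were not tested.

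Tissues that adjoin the cord varied most from library to library. The median ratio of 8 skeletal muscle markers ran from -5.96 in Control ZT8 replicate 1 to -0.61 in Control ZT8 replicate 2, which also had the lowest cholinergic median (1.57). In all 12 controls 2 of the 8 were depleted, close to the share of 24.9% over all genes tested. *Acta1*, the actin of skeletal muscle, was at 65.4 CPM in the input and at 0.759 to 22.0 CPM in the controls. In the *ChAT-BKO* libraries the median of these markers ran from -5.30 to 0.13. Sensory neuron markers, of which 5 of 6 were depleted, had medians per control library from -4.50 to -2.43, and the sodium channel gene *Scn10a* of pain-sensing neurons had the widest ratio of that list (-4.62 ± 1.47). By contrast, the SD over the 12 controls was 0.02 for the median of the pan-neuronal list and 0.09 for that of the skeletal motor neuron list. Blood markers were depleted, 3 of 3 tested, with a median of -2.85. The counts of sensory neuron and blood markers stand beside the same share of 24.9% of all genes tested.

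**Figure D4:**
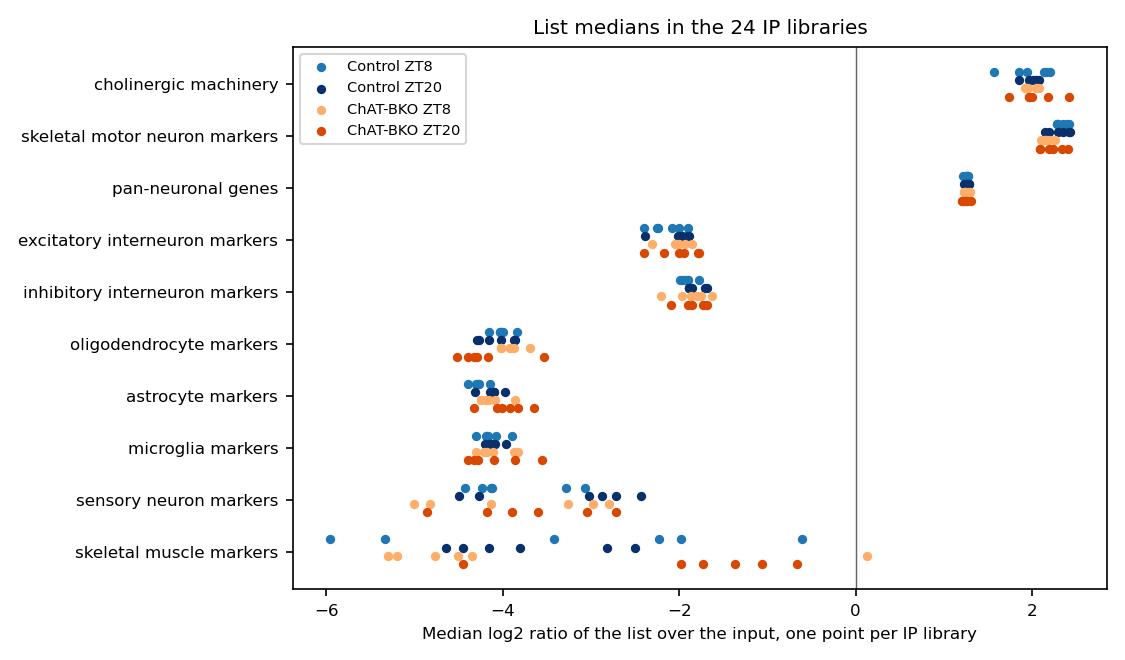
Median log2 ratio over the input of 10 lists in each of the 24 IP libraries, colored by genotype and time. Skeletal muscle markers span from -5.96 to -0.61 in the controls, whereas the pan-neuronal list spans from 1.21 to 1.29.

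Of 6 nicotinic and muscarinic receptor genes tested, 0 were enriched and 3 depleted (median -0.83), beside 5.01% and 24.9% of all genes tested, and 5 further members had under 20 counts in the input and in the median control. *Chrm2*, the M2 receptor of cholinergic synapses on motor neurons, had a ratio of 0.26 ± 0.17, *Chrnb2* 0.23 ± 0.09 and *Chrna7*, the homomeric nicotinic subunit, -2.52 ± 0.74. Among 13 subunits of glycine, GABA-A and glutamate receptors, 1 was enriched and 3 depleted. The median was -0.14 and turned to 0.34 under TMM scaling and to 0.28 under DESeq2 size factors. *Grin3b*, an NMDA receptor subunit of motor neurons, had the highest ratio of the named enriched genes with at least 20 input counts. It went from 7.17 CPM in the input to 119 to 154 CPM in the controls (4.18 ± 0.10). *Gria2*, the subunit that limits calcium entry through AMPA receptors, was depleted at -2.01 ± 0.11.

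Among genes with at least 20 input counts, predicted-gene, clone and -ps names aside, the 15 enriched genes with the largest ratios were led by *Grin3b* and *Uts2*. Next came *Rprml* (4.01 ± 0.23), *Prph* and *Palm3* (3.75 ± 0.18), and the 15 also held *Slc10a4*, *Slc18a3*, *Chodl* and *Vipr2*. Some have roles outside transmission. *Hspb1*, a small heat shock protein, was at 42.9 CPM in the input, at 320 to 589 CPM in the controls at ZT8 and at 448 to 612 CPM at ZT20 (3.47 ± 0.26). *Bag3*, a co-chaperone of selective autophagy, had a ratio of 3.05 ± 0.06, the galectin gene *Lgals1* 3.51 ± 0.15 and *Rab3b*, a vesicle GTPase, 3.13 ± 0.15. *Ackr1*, an atypical chemokine receptor, had 3.12 ± 0.16 and *Ahnak2* 2.98 ± 0.24. In all 12 controls each of these genes was above 4 times the input.

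Of 10 genes with at most 3 input counts and the highest levels in the controls, *Gnb3*, a G protein beta subunit, had 0 counts in the input and a median of 7.39 CPM in the controls, at least 18.2-fold higher than 3 counts in the input library allow. *Lt1*, annotated as a pseudogene, also had 0 input counts, with a median of 14.0 CPM (at least 34.4-fold). *Ucn*, the peptide urocortin, had 1 input count and a median of 5.59 CPM, a 41.3-fold ratio with a counting interval of 7.42 to 1632. *Spp2*, *Il1f9*, *Apol9a*, *Procr*, *Apol6* and *Edn2* had 1 to 3 input counts and medians of 3.07 to 8.47 CPM. *Cers1*, which shares a transcription unit with *Gdf1*, was at 0 in 5 controls and at up to 76.3 CPM in others. Counts of both genes summed to 75.4 CPM in the input and to 81.5 to 109 CPM in the controls, a log2 ratio of 0.37, so the value of *Cers1* alone is uncertain.

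The 15 depleted genes with the lowest ratios included the astrocyte genes *Aqp4* (water channel, -5.68 ± 0.38) and *Slc39a12* (-5.29 ± 0.37), the microglial receptor *P2ry12* (-5.84 ± 0.71), the oligodendrocyte genes *Ugt8a* (-5.28 ± 0.37) and *Gpr37* (-5.23 ± 0.29), and the receptors *S1pr1* (-5.34 ± 0.48) and *Ednrb* (-5.34 ± 0.28). *Itgb8*, an integrin subunit, went from 87.1 CPM in the input to a median of 1.04 CPM. *Peg3os* had 50 counts in the input and 0 in all 12 controls, at least 366-fold lower with 3 counts over the group as the floor. *Zbed6*, whose coding sequence lies in an intron of another gene, had 113 input counts and 8 in all controls together. For *Peg3os* and *Zbed6* the way reads were split with overlapping genes is uncertain.

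Mitochondrially encoded mRNAs and the listed noncoding RNAs of the nucleus lay below the input. All 13 mitochondrially encoded mRNAs, which are translated by ribosomes without RPL22, were depleted (median -4.07), and mitochondrial genes took 6.61% of counts in the input and 0.379% to 0.555% in the controls. *COX1*, a cytochrome oxidase subunit, was at 19818 CPM in the input and at 725 to 1081 CPM in the controls (-4.46 ± 0.17). *ATP8*, which overlaps *ATP6*, had the lowest ratio of the named depleted genes, at -6.91 ± 0.47. Of 8 tested noncoding RNAs retained in the nucleus, 5 were depleted (median -1.72), beside 24.9% of all genes tested. All 8 were below the input in every control, beside 54.6% of all genes tested. Noncoding transcripts at large were not uniformly low. Among 505 long noncoding RNAs tested, 6.14% were enriched and 30.3% depleted, and among 227 pseudogenes 8.37% and 7.93%. *Malat1*, a transcript of nuclear speckles, went from 176 CPM to between 19.0 and 35.2 CPM (-2.72 ± 0.26), and *Meg3* had -2.46 ± 0.24.

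The nuclear genes of the respiratory chain lay on the other side. All 20 were above the input in every control, beside 26.6% of all genes tested. Their median ratio was 0.88, with a range of 0.19 to 1.38, and 0 were called in either direction. Over all genes tested 5.01% were enriched and 24.9% depleted. *Atp5h* (1.38 ± 0.20), *Cox5a* (1.29 ± 0.26) and *Ndufv1* (1.25 ± 0.12) were highest. Ribosomal protein genes had a median of 0.06 over 86 tested, with 0 called, and the sign turned to -0.029 when mitochondrial genes were left out of the totals. Many of these genes have processed copies that can share reads. *Rpl22*, the tagged protein itself, was at 80.7 CPM in the input and at 58.4 to 81.5 CPM in the controls (-0.17 ± 0.15), and its paralog *Rpl22l1* was at 0.77 ± 0.29.

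The list of 18 core clock genes also holds clock outputs. Of these 18, 9 were depleted and 0 enriched, beside 24.9% and 5.01% of all genes tested, with a median of -1.20. *Rorb*, the lowest at -3.09, is also a member of the inhibitory interneuron list. *Cry2*, a repressor, was the highest at 0.34 ± 0.06, *Arntl*, which encodes BMAL1, was at -0.36 ± 0.22, and *Clock*, its partner, was at -1.98 ± 0.23. The outputs *Dbp* and *Hlf* were depleted at -2.16 ± 0.49 and -2.62 ± 0.16. The input carries no time point of its own in the labels, so the ratio of a rhythmic gene also holds the time at which the input was taken.

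Ratios were lower for longer transcripts. Lengths, taken from the transcript with the longest coding sequence, were found for 12918 nuclear protein-coding genes among the 14059. Over these genes the mean log2 ratio had a Pearson correlation of -0.29 and a Spearman correlation of -0.34 with log2 length. Both describe genes of the same 13 libraries. In 10 bins of equal gene number, the median ratio went from 0.33 at a median length of 0.962 kb to -1.07 at 8.17 kb, the share of enriched genes from 9.67% to 1.24% and that of depleted genes from 12.2% to 40.6%. Enriched transcripts had a median length of 2.11 kb, a 3' untranslated region of 0.447 kb and a GC content of 54.9%, against 3.10 kb, 1.02 kb and 50.8% over all of these genes and 3.87 kb, 1.48 kb and 49.2% for depleted transcripts.

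**Figure D5:**
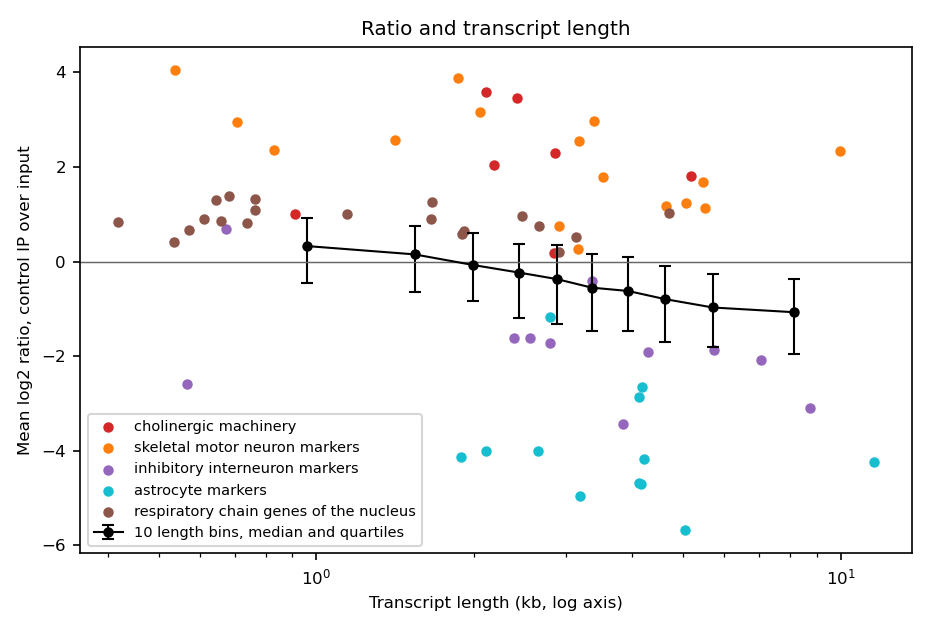
Mean log2 ratio against transcript length on a log axis, as the median and quartiles of 10 bins of genes (black) and as single members of 5 lists (colors). The bins go down from 0.33 to -1.07, and cholinergic and skeletal motor neuron genes lie above the bin medians at short and long lengths alike.

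The relation with length differed between libraries, with correlations from -0.33 in Control ZT20 replicate 2 to -0.18 in Control ZT8 replicate 5. The latter library also had the highest ratios of *Chat* and *Slc5a7*, and Control ZT8 replicate 2, with the lowest ratios of both, had a correlation of -0.32. The part of length in the spread of these genes was not tested. Relative to the median of their length bin, cholinergic genes lay higher by a median of 2.66, skeletal motor neuron markers by 2.52 and respiratory chain genes by 0.73, whereas inhibitory interneuron markers lay at -1.35, astrocyte markers at -3.85 and core clock genes at -0.53. *Slc5a7*, with a transcript of 5.18 kb, was 2.77 above its bin and *Slc18a3*, with 2.41 kb, 3.69 above. Among depleted genes with long transcripts, *Gria2*, *Gad2* and *Clock* lay at -0.94, -0.91 and -0.91 relative to their bins.

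The scale of all ratios depended on how library size was defined. With TMM factors the ratios rose by a median of 0.48 and with DESeq2 size factors by 0.41, which gave 1750 and 1561 enriched genes and 2324 and 2460 depleted genes. Enriched genes thus made up 16.8% of the calls with total counts, 43.0% with TMM and 38.8% with DESeq2 size factors, and all 705 enriched genes were also enriched under both. Of 270 list members and named genes other than ribosomal protein genes, 7 went from below to above the input under both scalings, namely *Arntl*, *Bhlhe41*, *Gad1*, *Glrb*, *Gria4*, *Map2* and *Snap25*, and 0 of the 7 were called. Some depleted members kept their sign but left the limit, among them *Aldoc* (-0.68 with TMM and -0.75 with DESeq2 size factors) and *Nr1d2* (-0.92 and -0.99). The same held for 29 of 86 ribosomal protein genes, *Rpl22* among them (0.31 with TMM and 0.24 with DESeq2 size factors). Relative to genes of the same length, 1250 genes were enriched and 1960 depleted, 38.9% of calls. In share of counts, enriched genes took 23.4% to 25.1% of each control library and 7.13% of the input, and depleted genes 4.51% to 5.25% and 28.4%.

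Whether the transcripts in the IP products differed between ZT8 and ZT20 was tested on the controls alone with edgeR's quasi-likelihood test and Benjamini-Hochberg adjustment over 20052 genes. At an adjusted p under 0.05, 19 genes were higher and 4 lower at ZT20, 0.115% of the genes tested. With 1 library left out, 9 to 25 were higher and 2 to 5 lower. The number higher was 9 to 12 without Control ZT8 replicate 1, 2, 4 or 6 or Control ZT20 replicate 1, 2, 3 or 6, and the number lower was 2 without Control ZT8 replicate 1, 2 or 4 or Control ZT20 replicate 1, 2, 3, 4 or 6. Among the 705 enriched genes, 1 was called, *Chpf2*, which encodes a chondroitin synthase component, at 191 ± 12.7 CPM at ZT8 and 148 ± 9.48 CPM at ZT20 (log2 fold change -0.38, SE 0.06, adjusted p = 0.0108 by edgeR). The next 4 enriched genes in order of p, *Flt3*, *Lrrn2*, *Foxo6* and *Fam131c*, had adjusted p-values of 0.103 to 0.201 by edgeR. DESeq2 called 73 genes higher and 50 lower, of which 9 were enriched genes.

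None of the 7 cholinergic genes was called by edgeR, DESeq2 or limma voom and 0 had an unadjusted p under 0.05, with log2 fold changes from -0.07 to 0.10 and adjusted p-values of 0.816 or more by edgeR. Likewise 0 of 16 skeletal motor neuron markers (-0.23 to 0.18) and 0 of 11 motor neuron transcription factors (-0.14 to 0.28) were called by any of these tools, with 2 and 1 at an unadjusted p under 0.05 by edgeR. Of 18 core clock genes, only *Dbp*, a transcription factor under direct control of CLOCK and BMAL1, was called by edgeR, at 17.4 ± 2.88 CPM at ZT8 and 9.67 ± 1.59 CPM at ZT20 (log2 fold change -0.86, SE 0.12, adjusted p = 0.0106). *Neat1*, a nuclear noncoding RNA, was higher at ZT20 (log2 fold change 0.41, SE 0.07, adjusted p = 0.0380 by edgeR), at 174 ± 14.3 CPM at ZT8 and 233 ± 27.8 CPM at ZT20. *Dbp* and *Neat1* both lay below the input, at log2 ratios of -2.16 and -1.40. The part of RNA from other cells in these 2 differences was not tested. Among 12 oligodendrocyte, 12 astrocyte and 10 microglia markers edgeR called 0, with 3, 1 and 0 at an unadjusted p under 0.05, and DESeq2 called 1 oligodendrocyte marker. Markers of adjoining tissues also had 0 calls by edgeR, with 6 of 8 skeletal muscle markers (median log2 fold change -1.58), 5 of 8 fibroblast markers (0.54), 3 of 9 endothelial markers (0.40) and 2 of 4 blood markers (0.53) at an unadjusted p under 0.05. DESeq2 called 1 fibroblast and 1 endothelial marker. The part of these tissues in the differences between times was not tested.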

How the data were processed

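Spinal cord homogenates of single mice were precipitated with anti-HA antibody, and stranded mRNA libraries were sequenced. The authors aligned the reads with STAR 2.7.5 to mm10 and estimated counts per gene with RSEM 1.3.0, and the deposited values are these expected counts, not normalized, for 50559 genes in 25 columns, of which 0 were left unused. Counts were rounded, since 6.11% were not whole, and 21076 genes had no count. The methods name Ensembl release 98, but 96.7% of the symbols were found in RefSeq GRCm38.p6 and 74.8% in GENCODE M21. Mitochondrial genes are listed without the mt prefix. Transcript lengths came from GENCODE M21 and promoters from RefSeq.

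Groups came from the sample labels. CPM used total counts on genes. The rule for named genes took list members, the 15 enriched and 15 depleted genes with the largest mean ratios among those with at least 20 input counts, the 10 genes with at most 3 input counts and the highest control levels, and the 5 enriched genes with the smallest p between times. Genes with predicted-gene, clone or -ps names were counted but not named. The lists of visceral motor neuron and interneuron markers and of microglia markers each lack 1 member, and that of glycine, GABA-A and glutamate receptor subunits lacks 2, that are not reported here, which was decided once values were known. *Gdf1* was named after its value was seen. The members and lists were chosen with earlier results of these data known. ZT20 was tested against ZT8 on the 12 controls with edgeR 4.0.16 in R 4.3.3, for genes with at least 10 counts in sum, with TMM normalization. Alternatives used DESeq2 1.42.0, limma 3.58.1 and other scalings, priors, filters and limits. The length bins, the totals of protein-coding genes and the inclusion of untested list members were alternatives chosen after seeing the data. Both kinds of fit were tested on simulated data. All 30 pairs of control libraries of the same time differed by more than counting error (chi-square per degree of freedom 2.56 to 27.6).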

Additional observations from a re-analysis of the deposited data

Results flagged for a closer look

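In groups of 6 controls, Dixon's test at the 95% level marked a single library in 6 of 106 groups examined, where chance marks about 1 in 20. In Control ZT20 replicate 4 the median log2 ratio of motor neuron transcription factors was 1.03 (others 1.26 to 1.36) and that of excitatory interneuron markers was -2.38 (others -2.01 to -1.89). *Mnx1* was at 4.84 in Control ZT20 replicate 2 (others 4.46 to 4.57). Control ZT20 replicate 1 had the highest ratios of *Slc17a6* (-1.60, others -2.25 to -2.02), *Gad1* (-0.084, others -0.39 to -0.30) and *Foxj1* (0.29, others 0.02 to 0.09).

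Between times, the edgeR test of the controls marked *Dbp*, lower at ZT20 by a log2 fold change of -0.86, and *Neat1*, higher by 0.41. DESeq2 gave both an adjusted p under 0.05 as well.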

How the results depend on the processing

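With TMM scaling 1750 genes were enriched, 2324 were depleted and the cholinergic median was 2.51, and with DESeq2 size factors 1561 were enriched and the median was 2.45. A mean past the limit, instead of all 12 controls, gave 1257 enriched genes, and a limit of 4-fold gave 123 enriched and 1369 depleted. Relative to genes of the same length 1250 were enriched and 1960 depleted, with a cholinergic median of 2.66. With each control left out in turn, 702 to 833 genes were enriched, most without Control ZT8 replicate 5, and 3498 to 3668 depleted, with a cholinergic median of 2.02 to 2.05. The median of the glycine, GABA-A and glutamate receptor list turned from -0.14 to 0.34 with TMM, to 0.28 with DESeq2 size factors and to 0.62 relative to genes of the same length. That of ribosomal protein genes turned from 0.06 to -0.029 without mitochondrial genes in the totals, to -0.041 with totals of protein-coding genes and to -0.18 relative to genes of the same length. With 20 counts required in the input, the median of motor neuron transcription factors turned to -0.65. With a count minimum of 50, that of visceral and interneuron markers turned from -0.62 to 0.22.

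Between times, DESeq2 gave 73 higher and 50 lower genes, with 9 enriched genes called, limma voom 27 higher and 9 lower, and filterByExpr 19 higher and 7 lower. At an adjusted p under 0.01 edgeR called 0 genes in either direction and 0 enriched genes, where 1687 genes had an unadjusted p under 0.05 and 68 of those were enriched. With each library left out in turn, 9 to 25 genes were higher (9 without Control ZT8 replicate 1, Control ZT20 replicate 1, 2 or 3), 2 to 5 lower and 1 enriched gene called each time. With the replicate number as a block, 29 genes were higher and 7 lower. Deviations of same-numbered samples correlated at -0.01 to 0.17, and 2 of 6 numbers matched best with themselves, so the numbers were not taken as pairs. The single input limits every ratio, and for genes with few input counts its counting error exceeds the spread among the controls.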
